A study of Rattus norvegicus with 30 samples.

Results

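10 wells of cultured rat hepatocytes, 5 given 8 µM WY-14643 for 48 h and 5 given vehicle for as long, were compared across all expressed genes. They were picked by their titles from a series of 30 arrays. The cells came from male Sprague Dawley rats, were bought frozen, plated on collagen under Matrigel and dosed on day 3 of culture. The vehicle is labelled 1% DMSO, but the protocol gives that figure for the concentrated dosing solutions, so the final DMSO content of vehicle and treated medium is uncertain. The other 4 groups of 5 wells, vehicle and 8 µM at 24 h and 200 µM at both times, shared the estimate of spread. The labels count each well as a biological replicate without naming animals, so every error and p measures the spread between wells, which may be technical.

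WY-14643, or pirinixic acid, is a synthetic ligand of PPARα, the nuclear receptor that senses fatty acids in liver. PPARα pairs with an RXR receptor and binds DR1, a direct repeat of the half-site AGGTCA with a single base in between. Its known target genes carry fatty acids into hepatocytes, activate them and oxidize them in mitochondria, peroxisomes and the endoplasmic reticulum, and in rat and mouse liver its ligands make peroxisomes multiply.

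RNA was read on Affymetrix rat arrays as MAS5 signal in arbitrary units, and differences are on the log2(signal + 16) scale, 8 µM minus vehicle, with the SE of the fit after ±. A gene was tested if its signal passed 281 in at least 5 of the 30 arrays. The array of vehicle well 4 stood apart: its median signal was 765 against 389 to 421 on the other 9, and 73.9% of its probe sets passed the filter against 58.0% to 60.0%. Counts over all genes are therefore given with and without it. The ratio of 3′ to 5′ β-actin signal, which can follow RNA length, was 2.61 ± 0.313 (SD, n = 5) in vehicle wells and 3.26 ± 0.417 in treated wells (two-sided exact permutation test, p = 0.024, adjusted over 4 ratios 0.053; without well 4 0.095). The ratio of its 3′ to middle signal was 1.46 ± 0.142 and 1.71 ± 0.168 (exact permutation p = 0.04, adjusted 0.053). GAPDH ratios were lower in treated wells, at 1.18 ± 0.0434 and 1.15 ± 0.0281 for 3′ to 5′ (exact permutation p = 0.33, adjusted the same) and 1.23 ± 0.0256 and 1.19 ± 0.0297 for 3′ to middle (exact permutation p = 0.032, adjusted 0.053). No ratio passed 0.05 after adjustment. The part of RNA quality in the results was not tested.

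The wells carried hepatocyte RNA. Albumin (Alb), the main secreted hepatocyte protein, had a signal of 69853 ± 8898 in vehicle wells and 72722 ± 6059.5 in treated wells (SD, n = 5). The 9 hepatocyte markers measured summed to 459857 to 515103 in vehicle wells 1, 2, 3 and 5, to 352585 in well 4 and to 370901 to 425393 in treated wells. The 12 macrophage markers summed to 26823 to 28884, 25913 and 18727 to 21662 in the same order. Of the 11 tested Cd68 rose (9.09%) and Lyz2 and Cd14 fell (18.2%), against 16.7% and 18.9% of all genes tested. Lymphocyte markers summed to 1980 to 2171, 6720 and 1768 to 2880, with 10 of 12 below the filter on average. Endothelial markers gave 3233 to 3739, 6418 and 3504 to 4224, stellate cell markers 5132 to 6453, 10229 and 4855 to 5550, and bile duct markers 13528 to 14779, 11216 and 11741 to 13311. On the array of well 4 the lymphocyte, endothelial and stellate sums were thus high and the hepatocyte sum low. Its macrophage and bile duct sums were also the lowest of the vehicle wells. The signals of this array did not all move 1 way, since its median signal was high and its hepatocyte sum low. Its median correlation with its own group was 0.896, against 0.977 to 0.9785 on the other 9 arrays. As with the lymphocyte markers, 6 of 10 endothelial markers were below the filter on average. Which cells well 4 held was not tested. The sums rest on their brightest genes. Cd14 and Lyz2 led the macrophage sum, with means of 12960 and 9562 in vehicle wells 1, 2, 3 and 5. Their means were 9285 and 4758 in treated wells. Epcam led the bile duct sum. In the hepatocyte sum Ahsg went from 71299 to 29020 between the same groups, and Ttr from 64309 to 62547. In these bulk samples fewer cells of a type, less RNA per cell and a change of a few bright genes cannot be told apart.

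5 promoters are printed from RefSeq (GRCr8), 250 bases before to 50 bases after the gene start, to show where a DR1 repeat was found and where it was not. The repeat was searched as AGGTCA, any base, AGGTCA on both strands with at most 1 mismatch in its fixed letters, and capitals mark it. Fabp1, Acot4 and Acadvl, genes of fatty acid binding, acyl-CoA cleavage and oxidation described below, held a match and were chosen after the search. Acot1 and Aqp3, the largest rises, held none in this window. They lie at chr4:104749090-104749389 (plus strand), chr6:109399604-109399903 (plus), chr10:55236656-55236955 (minus), chr6:109367024-109367323 (plus) and chr5:61040634-61040933 (minus).
Fabp1: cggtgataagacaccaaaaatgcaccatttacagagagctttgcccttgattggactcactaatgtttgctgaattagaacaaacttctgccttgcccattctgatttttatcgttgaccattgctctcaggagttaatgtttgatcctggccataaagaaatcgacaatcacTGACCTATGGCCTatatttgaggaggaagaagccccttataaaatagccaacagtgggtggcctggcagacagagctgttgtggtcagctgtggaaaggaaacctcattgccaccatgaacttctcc
Acot4: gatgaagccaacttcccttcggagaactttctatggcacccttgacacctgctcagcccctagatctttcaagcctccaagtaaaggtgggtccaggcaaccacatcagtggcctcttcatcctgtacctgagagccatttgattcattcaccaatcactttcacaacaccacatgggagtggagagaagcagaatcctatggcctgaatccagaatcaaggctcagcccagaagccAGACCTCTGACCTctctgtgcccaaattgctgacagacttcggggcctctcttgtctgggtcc
Acadvl: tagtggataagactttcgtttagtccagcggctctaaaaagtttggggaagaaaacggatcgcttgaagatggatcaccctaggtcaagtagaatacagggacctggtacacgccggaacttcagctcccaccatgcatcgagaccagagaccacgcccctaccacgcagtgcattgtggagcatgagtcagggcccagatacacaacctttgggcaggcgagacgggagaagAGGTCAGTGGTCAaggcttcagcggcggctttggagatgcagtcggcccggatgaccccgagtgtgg
Acot1: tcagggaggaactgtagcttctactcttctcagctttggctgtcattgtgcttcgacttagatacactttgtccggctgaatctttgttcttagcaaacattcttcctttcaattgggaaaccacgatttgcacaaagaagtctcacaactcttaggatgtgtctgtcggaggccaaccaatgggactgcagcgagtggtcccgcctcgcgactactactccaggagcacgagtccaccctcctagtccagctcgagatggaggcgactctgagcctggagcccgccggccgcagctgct
Aqp3: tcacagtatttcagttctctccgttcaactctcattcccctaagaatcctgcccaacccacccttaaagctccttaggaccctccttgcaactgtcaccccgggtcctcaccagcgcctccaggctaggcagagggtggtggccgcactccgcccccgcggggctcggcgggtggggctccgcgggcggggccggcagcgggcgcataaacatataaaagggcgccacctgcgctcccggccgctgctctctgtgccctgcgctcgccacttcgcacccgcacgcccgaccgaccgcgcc

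The match began 77 bases before the start of Fabp1, 13 before that of Acot4 and 17 before that of Acadvl, each with 1 mismatch. Of 33469 promoters in the table, 147 (0.439%) held such a match, and of 10741 promoters of tested genes 49 (0.456%). Among promoters of genes that rose it stood in 18 of 1767 (1.02%), and of genes that rose at least 2-fold in 7 of 290 (2.41%). Among promoters of genes that fell it stood in 5 of 1995 (0.251%), and of genes that fell at least 2-fold in 1 of 269 (0.372%). No promoter of a gene that rose held an exact match, and 1 of a gene that fell did. These shares are descriptions, and a match is not a binding site.

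Of 11545 genes, 1928 rose (16.7%) and 2184 fell (18.9%) by limma with Benjamini-Hochberg adjustment at 0.05, and a gene is said below to rise or fall where it passed this test. All 5 treated wells lay above all 5 vehicle wells for 1289 genes (11.2%) and below for 1169 (10.1%). Without vehicle well 4, 1937 rose (16.8%) and 2337 fell (20.2%), with 1689 rises and 1866 falls called both ways and no gene called in opposite directions. Differences reached 2 log2 units for 79 rises and 32 falls. The median over all genes was -0.06. Centring each array on its median moved it to 0.13, and then 2082 genes rose (18%) and 766 fell (6.63%), so that rises made up 73.1% of the calls in place of 46.9%. With well 4 left out, centring gave 48.3% rises. Rises of at least 1.5-fold numbered 717 (6.21%) and such falls 920 (7.97%). With only these 10 arrays in the fit, 1373 (11.9%) rose and 1510 (13.1%) fell. For each gene list below, pairs of counts in parentheses are rises and falls. Those after centring, without well 4 or in the fit of 10 arrays are given where they moved a count 1.5 times or more. Medians without well 4 are given where their sign turned. Centring raised all differences alike, so small negative medians, as for amino acid breakdown and hepatocyte identity, turned positive, and centred medians are not given. Centred counts include well 4. With it left out, centring gave 12 endoplasmic reticulum falls in place of 4 and 14 dedifferentiation falls in place of 7. Immediate early falls were then 11 in place of 7, and inflammation falls 9 in place of 6.

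The largest rise was that of Acot1, a cytosolic enzyme that cleaves acyl-CoA to free fatty acid. Its signal was 1624, 302, 127, 54.2 and 171 in vehicle wells 1 to 5 and 52168, 54172, 51342, 52101 and 54959 in treated wells. Vehicle well 1 was higher than the other vehicle wells, and every treated well lay far above all of them. The difference was 7.73 ± 0.41 log2 units, 212-fold (adjusted p = 5.8e-17 by limma), and 8.40 without vehicle well 1. Aqp3, a membrane channel for glycerol and water, gave 30.3, 28.1, 56.9, 144 and 24.4 with vehicle and 8223, 9816, 9410.3, 9469 and 14341 with 8 µM. All its vehicle wells were below the filter, so the rise of 7.33 ± 0.23 depends on the constant added before the logarithm and was 6.47 with 64 in place of 16.

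Fabp3, the heart form of the fatty acid binding proteins, gave 264, 426, 487, 235 and 99.8 with vehicle and 14317, 15993, 15607, 15349.9 and 13412 with 8 µM, a rise of 5.72 ± 0.26. Ehhadh, a bifunctional peroxisomal enzyme that acts in β-oxidation, gave 1665, 1271, 1014, 454 and 1034 against 41150.0, 48764, 47684, 46131 and 58724, a rise of 5.56 ± 0.17. Its lowest vehicle value was that of well 4, and without that well the rise was 5.28 ± 0.10. Fabp1, the abundant liver form of the binding proteins, was already high with vehicle, at 7547, 6872, 6883, 5295 and 8131, and reached 78706, 87585, 80022, 74845 and 83609 with 8 µM. That was 11.7-fold (3.55 ± 0.09). Every treated well of these 3 genes lay several-fold above every vehicle well, where the choice of the largest rises required only no overlap.

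Cpt1b, the muscle form of the enzyme that lets long acyl chains into mitochondria, rose from 951 ± 277 to 13778 ± 1224 (SD, n = 5; 3.88 ± 0.13). Pdk4, a kinase that shuts off pyruvate dehydrogenase, rose from 4258 ± 1067 to 47094 ± 1726 (3.50 ± 0.09), but its second probe set gave 1.54 and the mean of both 2.52. Cyp4a1, which hydroxylates the end carbon of fatty acids, rose from 8275 ± 1753 to 75313 ± 4736 (3.21 ± 0.09). Several of the 15 largest rises have other known roles. Nim1k (4.72 ± 0.30) is a protein kinase, Entpd1 (4.23 ± 0.36) removes phosphates from extracellular ATP, Prss23 (3.83 ± 0.19) is a serine protease and Spc24 (3.29 ± 0.11) a kinetochore subunit. Krt79 (4.10 ± 0.35) and Krtap1-5 (3.24 ± 0.32) encode a keratin and a keratin-associated protein, and Lrrc39 (3.59 ± 0.14) a leucine-rich repeat protein. Vehicle signals of Nim1k, Entpd1, Krt79 and Krtap1-5 were below the filter, and with 64 in place of 16 their rises were 3.89, 3.25, 2.87 and 2.72.

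**Figure D1:**
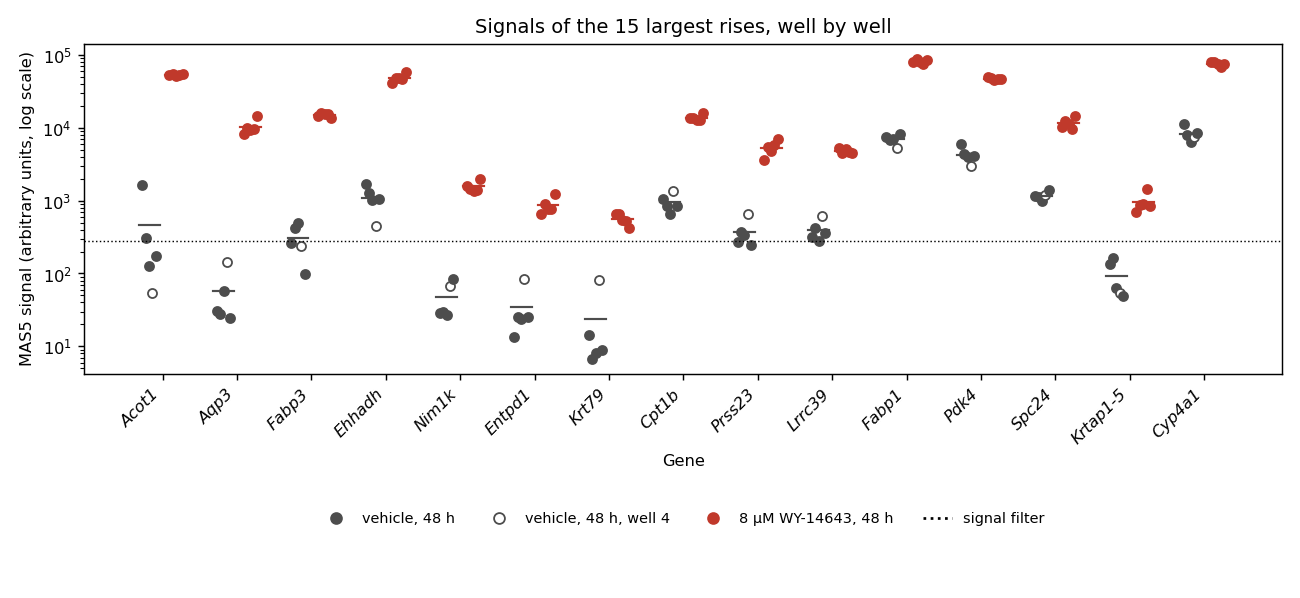
MAS5 signals (log axis) of the 15 largest rises in each of 5 vehicle wells (grey, well 4 open) and 5 treated wells (red); short bars are means and the dotted line is the signal filter. The genes were picked among rises with all treated wells above all vehicle wells, and for Acot1 1 vehicle well stands at 1624.

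Ppara, the receptor itself, and Rxra, its usual partner, were below the filter and not tested. Ppara had a signal of 116 ± 70.5 with vehicle and 68.8 ± 34.4 with 8 µM (SD, n = 5), and Rxra 192 ± 110.0 and 199.5 ± 71.1. Among nuclear receptors and coregulators, of 27 genes tested 9 rose and 8 fell (median 0.08, 4 and 2 by at least 1.5-fold, 8 and 2 after centring). Rxrg, another RXR, rose by 1.46 ± 0.07, although its second probe set was not called (-0.31). Nr1h4, the bile acid receptor FXR, rose by 1.14 ± 0.08. The glucocorticoid receptor and a triglyceride regulator fell, Nr3c1 (-0.50 ± 0.05) and Lpin1 (-0.74 ± 0.08).

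For uptake, binding and activation of fatty acids, of 20 genes tested 15 rose and 3 fell (median 0.53, 9 and 1 by at least 1.5-fold, 15 and 1 after centring). Besides Fabp1 and Fabp3, the acyl-CoA synthetases Acsl1 (3.09 ± 0.10) and Acsl3 (2.44 ± 0.10), which attach fatty acids to coenzyme A, and the membrane transporter Cd36 (2.50 ± 0.13) rose. Acsl1 signals were 7814, 6204, 6099, 3738 and 6790.1 with vehicle and 51967, 54603, 47689, 48288 and 52621 with 8 µM, with no overlap. Slc27a5, which activates bile acids, was among the 3 that fell (-0.92 ± 0.12).

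For mitochondrial β-oxidation, of 21 genes tested 20 rose and none fell (median 1.26, 18 and 0 by at least 1.5-fold, 20 and 1 without well 4). Acadm (2.26 ± 0.07) and Acadvl (1.64 ± 0.05), the medium-chain and very long-chain acyl-CoA dehydrogenases, take its first step. Acadvl signals were 7015, 7261, 6389, 6145 and 7668 with vehicle and 21026, 22094, 21965, 20306 and 21998 with 8 µM, so that each group was narrow and the groups were far apart. Hadha, a subunit of the trifunctional protein, rose by 1.82 ± 0.07. Cpt1a, the liver form of the entry enzyme, rose by 2.84 ± 0.10, but by only 0.54 with its other probe set. Echs1, the short-chain enoyl-CoA hydratase, was the member not called (-0.08), and without well 4 it was called as a fall (-0.18 ± 0.06).

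For peroxisomal β-oxidation, which shortens very long chains, of 15 genes tested 12 rose and 1 fell (median 1.42, 10 and 1 by at least 1.5-fold, 12 and 0 after centring). Hacl1, a lyase of peroxisomal α-oxidation that was counted in this list, gave 3967, 3497, 3344, 3450.4 and 4316 with vehicle and 25025, 29820.1, 28785, 26997 and 33352 with 8 µM, a rise of 2.95 ± 0.07 with no overlap. The carnitine acyltransferases Crat (2.79 ± 0.11) and Crot (1.97 ± 0.06) and the reductase Decr2 (2.05 ± 0.08) rose too. Acox2, the oxidase for branched chains and bile acid precursors, was the member that fell (-0.71 ± 0.14). For peroxisome biogenesis, of 17 genes tested 12 rose and none fell (median 0.69, 9 and 0 by at least 1.5-fold, 13 and 1 without well 4). Pex11a, which drives peroxisome division, rose from 7828 ± 972 to 22264 ± 1394 (SD, n = 5; 1.51 ± 0.06), and Pex16 (1.45 ± 0.09), Pex19 (1.13 ± 0.08) and Pex3 (0.69 ± 0.07), needed to build the membrane, rose with it.

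For acyl-CoA thioesterases, of 10 genes tested 10 rose and none fell (median 1.71, 8 and 0 by at least 1.5-fold). Acot2 (2.51 ± 0.08), Acot4 (2.62 ± 0.11) and Acot7 (1.83 ± 0.09) joined Acot1. Acot4 signals were 3092, 3228, 2719, 1651 and 2947 with vehicle and 16002, 15923, 16720.5, 15701 and 17692 with 8 µM, with well 4 the lowest. Acot1 and Acot2, like members of the Cyp4a, Cyp2c and Ugt2b families, are close relatives, and since probe sequences were not used here their signals cannot be apportioned with certainty. For hydroxylation of the end carbon in the endoplasmic reticulum, of 10 genes tested 3 rose and 3 fell (median 0.09, 2 and 1 by at least 1.5-fold, 3 and 1 after centring, 3 and 2 in the fit of 10 arrays). Cyp4a3 (2.58 ± 0.08) rose beside Cyp4a1, as did the aldehyde dehydrogenase Aldh3a2 (0.40 ± 0.07), while Cyp4f1, of another subfamily, fell (-0.86 ± 0.14).

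For ketone bodies and fasting signals, of 13 genes tested 10 rose and 2 fell (median 1.16, 9 and 2 by at least 1.5-fold, 10 and 3 without well 4). Acat1 (2.31 ± 0.06) acts in ketone metabolism, Creb3l3 (1.85 ± 0.09) is a fasting transcription factor and Txnip (1.64 ± 0.07) limits glucose uptake. Angptl4, a secreted inhibitor of lipoprotein lipase, gave 9607, 8937, 8656, 4516 and 9178 with vehicle and 32954, 34160.5, 32467, 32588 and 33260.4 with 8 µM, a rise of 2.06 ± 0.13 with well 4 lowest. Ppargc1a, a fasting coactivator, and Oxct1, which uses ketone bodies, were the 2 that fell, -0.80 ± 0.19 and -0.94 ± 0.17.

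For glycerol handling, of 7 genes tested 5 rose and 2 fell (median 2.78, 5 and 2 by at least 1.5-fold). Besides Aqp3, the channel Aqp7 gave 2521, 2374, 2712, 3403 and 2954 with vehicle and 19338, 21784, 20345, 21911 and 23684 with 8 µM, a rise of 2.94 ± 0.07 with no overlap. Glycerol kinase (Gk, 2.78 ± 0.08) and mitochondrial glycerol phosphate dehydrogenase (Gpd2, 3.03 ± 0.13) rose. Aqp9, the known main glycerol channel of liver, fell (-1.55 ± 0.10), opposite to the other channels. For lipid droplets and lipolysis, of 20 genes tested 14 rose and 1 fell (median 0.84, 11 and 1 by at least 1.5-fold, 13 and 2 without well 4). Hilpda, a droplet protein that inhibits lipolysis, gave 4285, 4034, 4587, 4223 and 5145 against 31632, 30482, 29496, 27496 and 27647, a rise of 2.72 ± 0.06. Its target lipase Pnpla2 (1.84 ± 0.08), the activator Abhd5 (1.89 ± 0.06), the inhibitor G0s2 (2.03 ± 0.11) and the last lipase of the chain, Mgll (2.07 ± 0.09), rose as well. Lipe, the hormone-sensitive lipase, was the member that fell (-1.10 ± 0.19).

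For synthesis of fatty acids and triglycerides, of 22 genes tested 15 rose and 3 fell (median 0.62, 13 and 3 by at least 1.5-fold). The triglyceride enzymes Dgat1 (1.65 ± 0.07) and Dgat2 (1.04 ± 0.05), the desaturase Fads1 (2.51 ± 0.13) and malic enzyme Me1 (2.00 ± 0.11) led. Fasn and Srebf1, the synthase and a regulator of this route, did not pass the test (0.25 and 0.18), and Acaca, the carboxylase that commits carbon to it, fell (-0.81 ± 0.10; its other probe set was not called). For cholesterol synthesis and uptake, of 19 genes tested 14 rose and 1 fell (median 0.47, 5 and 0 by at least 1.5-fold, 14 and 0 after centring), among them Hsd17b7 (1.10 ± 0.09), Sc5d (0.64 ± 0.06), Msmo1 (0.66 ± 0.09) and Insig1 (0.65 ± 0.09). The first 3 are enzymes of the late pathway and Insig1 is its feedback regulator.

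For uncoupling proteins and mitochondrial carriers, of 13 genes tested 10 rose and 1 fell (median 0.42, 5 and 1 by at least 1.5-fold, 10 and 0 after centring). Ucp2, an inner membrane carrier, gave 599, 693, 564, 181 and 331 with vehicle and 4695, 2547, 2478, 3537 and 3543 with 8 µM, a rise of 2.88 ± 0.25 with no overlap. Slc25a20, the acylcarnitine carrier, rose by 1.56 ± 0.09, and Slc25a42 (1.70 ± 0.11) and Slc25a30 (1.35 ± 0.06) rose too. For the respiratory chain and citrate cycle, of 25 genes tested 12 rose and 1 fell (median 0.23, 4 and 1 by at least 1.5-fold, 8 and 1 in the fit of 10 arrays). Citrate synthase (Cs, 0.65 ± 0.07) and the mitochondrial transcription factor Tfam (0.61 ± 0.05) rose, and Idh2 fell (-0.98 ± 0.06). For glycolysis and gluconeogenesis, of 20 genes tested 8 rose and 5 fell (median 0.08, 6 and 2 by at least 1.5-fold, 6 and 2 after centring, 5 and 5 in the fit of 10 arrays). Pklr, liver pyruvate kinase, fell (-1.27 ± 0.08), while Pc (1.26 ± 0.09) and Fbp1 (1.07 ± 0.07), enzymes of glucose formation, rose.

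**Figure D2:**
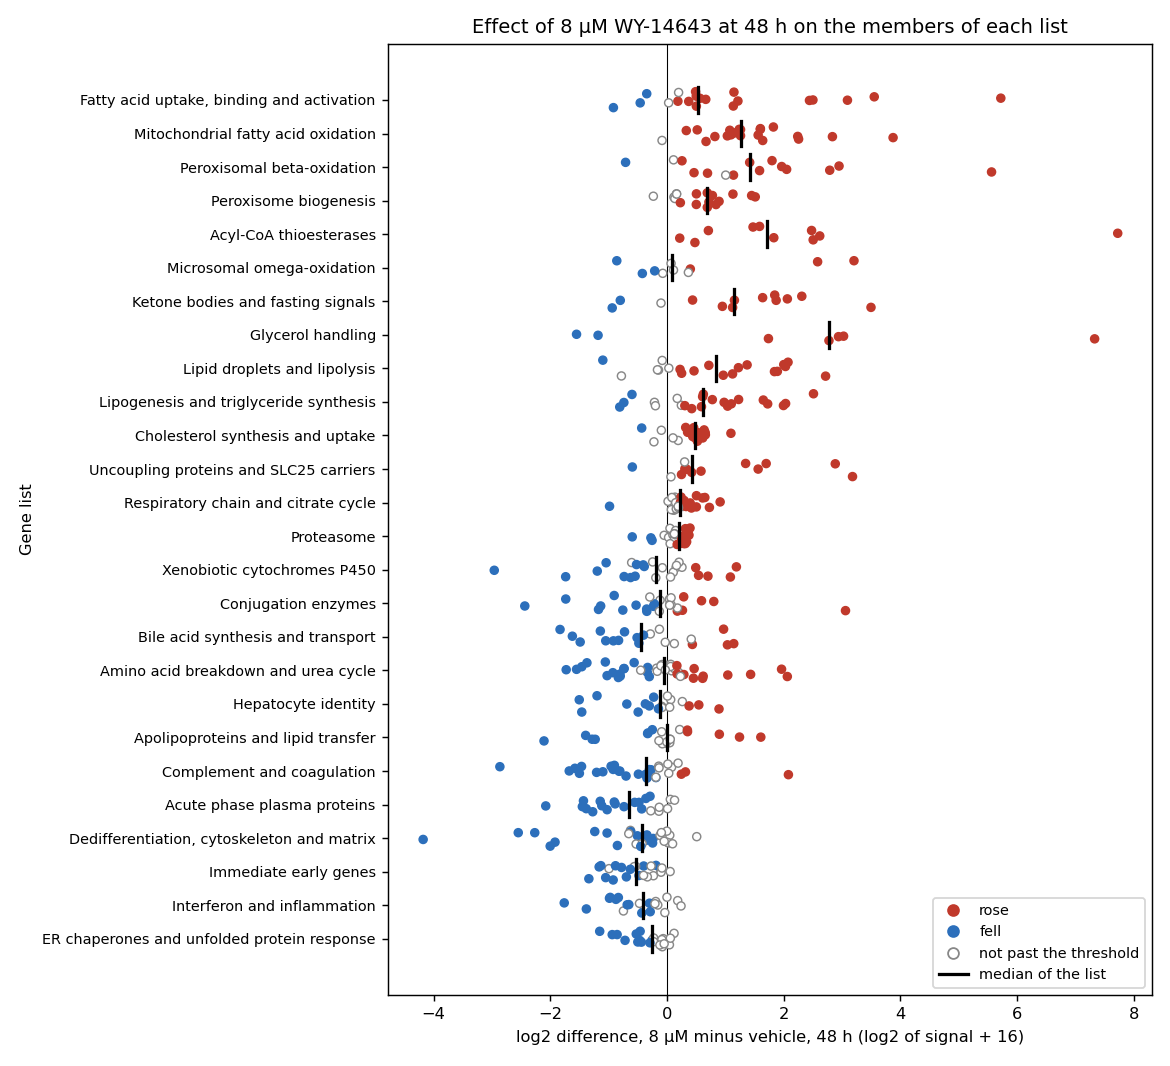
Each point is a tested gene of a list, placed by its log2 difference between 8 µM and vehicle at 48 h (n = 5 wells each); red points rose, blue points fell, open points did not pass the test and black bars are medians. Most fatty acid lists lie to the right (median 1.26 for mitochondrial β-oxidation), but microsomal omega-oxidation, the hydroxylation of the end carbon, has a median of 0.09. The acute phase list lies to the left (-0.65).

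The largest fall was that of Ccn2, a matrix-associated growth factor. Its signals were 18484, 18810.5, 18711, 14532 and 17637 in vehicle wells and 833, 1007, 887, 1148 and 923 in treated wells, an 18.1-fold fall (-4.18 ± 0.10). Il1r2, the decoy receptor for interleukin 1, gave 5117, 5139, 6009, 3260.3 and 5597 against 310.4, 242, 419.7, 269 and 214, a 16.5-fold fall. Every vehicle well of both genes lay several-fold above every treated well. Npy, a neuropeptide, gave 13179.9, 13685, 15849, 13304 and 15152 against 1082, 1238, 1139, 1071 and 1016, a 12.7-fold fall. Cyp2c11, the male-typical P450 of rat liver, gave 20228, 15940.4, 14201, 10320.3 and 17802 against 1409.8, 1924, 2039.5, 2058 and 2495, a 7.78-fold fall. No overlap of wells was a condition of the choice of the largest falls.

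Plasma proteins were also among the 15 largest falls. Hrg, histidine-rich glycoprotein, fell from 22104 ± 4388 to 3885 ± 388 (SD, n = 5; 5.59-fold), and Klkb1, plasma prekallikrein, from 2469.6 ± 438 to 337 ± 119 (7.28-fold). Kng2l1, a kininogen, fell from 20507 ± 2346 to 2189.9 ± 321 (-3.22 ± 0.10), but its 2 other probe sets gave -2.52 and -1.64. Steap4, a metal reductase, fell 7.22-fold, Hao2, a peroxisomal oxidase of hydroxy acids, 9.57-fold, and the membrane transporter Abca8a 9.92-fold. Prr15l (13.9-fold), LOC100912629 (6.43-fold), Calml4 (6.34-fold), Trim66 (6.02-fold) and Krt19, a bile duct keratin (5.85-fold), complete the 15. Treated wells of Prr15l, Calml4, Trim66 and Krt19 were below the filter, and with 64 in place of 16 their differences were -3.05, -2.38, -1.95 and -1.95 in place of -3.80, -2.67, -2.59 and -2.55.

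**Figure D3:**
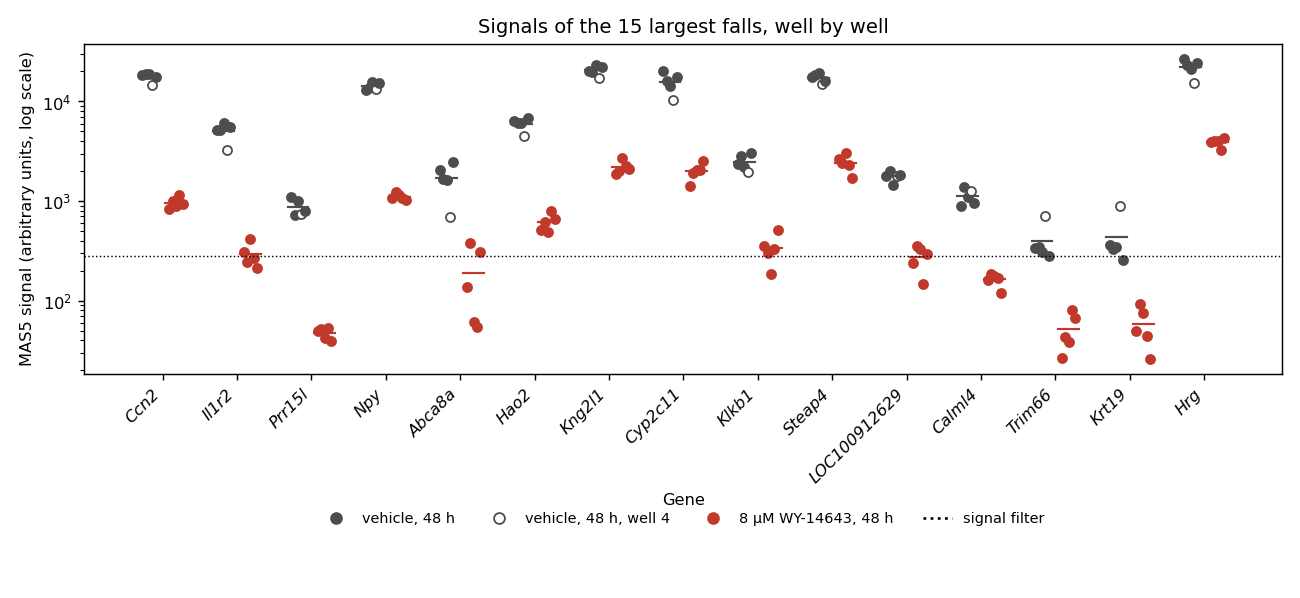
MAS5 signals (log axis) of the 15 largest falls in each of 5 vehicle wells (grey, well 4 open) and 5 treated wells (red); short bars are means and the dotted line is the signal filter. The genes were picked among falls with all treated wells below all vehicle wells. Treated wells of Ccn2 lie between 833 and 1148.

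For acute phase plasma proteins, which liver secretes in inflammation, of 22 genes tested none rose and 16 fell (median -0.65, 0 and 11 by at least 1.5-fold). A2m, a protease inhibitor, gave 60608, 62866, 62993, 46053 and 66160.2 with vehicle and 16583, 15914, 16775, 11699 and 10484 with 8 µM, a difference of -2.08 ± 0.11 with no overlap. Ceruloplasmin (Cp, -1.45 ± 0.09) carries copper, and Itih4 (-1.38 ± 0.08) and Serpina3n (-1.14 ± 0.07) are a plasma matrix-binding protein and a protease inhibitor. Hp and Orm1, haptoglobin and orosomucoid, did not pass the test (0.06 and 0.13). For complement and coagulation, of 30 genes tested 3 rose and 20 fell (median -0.36, 1 and 13 by at least 1.5-fold, 2 and 13 after centring, 2 and 19 in the fit of 10 arrays). C1s (-1.58 ± 0.09) is a protease of the classical pathway, F5 (-1.46 ± 0.10) a clotting cofactor and Serpind1 (-1.68 ± 0.15) a thrombin inhibitor. Cfd, the protease of the alternative pathway, rose by 2.08 ± 0.23.

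For interferon and inflammation, of 22 genes tested none rose and 11 fell (median -0.42, 0 and 8 by at least 1.5-fold, 0 and 6 after centring). Among them were Cxcl1 (-1.38 ± 0.15), a neutrophil chemokine, Il1r1 (-0.97 ± 0.10), the signalling receptor for interleukin 1, Tnfaip3 (-0.87 ± 0.09), an inhibitor of NF-κB, and Icam1 (-0.83 ± 0.12), an adhesion molecule. Lyz2, the macrophage marker that fell most, gave 9880.5, 9191, 9863, 8638 and 9314 with vehicle and 4103, 3898, 5705, 4805 and 5279.5 with 8 µM, with no overlap. Of the 11 macrophage markers tested 8 did not pass the test, among them C1qa (-0.03) and Csf1r (-0.11), and Cd68 rose by 0.42 ± 0.15, a call lost without vehicle well 1 or 2 or treated well 1 or 3. The part of macrophage RNA in the falls of these lists was not tested.

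For dedifferentiation, cytoskeleton and matrix, of 29 genes tested none rose and 16 fell (median -0.43, 0 and 9 by at least 1.5-fold, 0 and 7 after centring). Besides Ccn2, fibronectin (Fn1), a matrix protein, gave 46882, 41501, 42763, 31092 and 43672 with vehicle and 10104, 10456, 10759.8, 9749 and 9836 with 8 µM, a 4-fold fall with no overlap. S100a6 (-2.27 ± 0.11) binds calcium and Vim (-1.92 ± 0.14) is the filament protein vimentin. Krt8 and Krt18, the keratins of hepatocytes, did not pass the test (-0.12 and -0.00). For immediate early genes, which answer growth and stress signals, of 23 genes tested none rose and 12 fell (median -0.54, 0 and 9 by at least 1.5-fold, 0 and 7 after centring). Ier3 (-1.34 ± 0.08), Klf6 (-0.92 ± 0.06), Jun (-0.88 ± 0.09) and Dusp1 (-0.40 ± 0.06) were among them. For chaperones and the unfolded protein response of the endoplasmic reticulum, of 21 genes tested none rose and 11 fell (median -0.25, 0 and 4 by at least 1.5-fold, 0 and 4 after centring). Xbp1, a regulator of secretory capacity, gave 18061, 18399, 18069, 15508 and 19916 with vehicle and 9088, 9636, 9345, 9005 and 9687 with 8 µM (-0.94 ± 0.05), with no overlap. Creld2 (-1.15 ± 0.11), Edem1 (-0.72 ± 0.07) and Hsp90b1 (-0.85 ± 0.08) fell too, whereas Hspa5, the main chaperone there, did not pass the test (0.06).

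Liver functions were divided. For bile acid synthesis and transport, of 20 genes tested 4 rose and 11 fell (median -0.44, 3 and 8 by at least 1.5-fold). Cyp7a1, which sets the rate of bile acid formation, gave 1103, 869, 755, 1454 and 1136 with vehicle and 187, 325, 223, 361 and 345 with 8 µM (-1.83 ± 0.22), with no overlap. Cyp27a1 (-1.14 ± 0.07) acts on the other route and Abcc2 (-1.62 ± 0.08) and Abcb4 (-1.49 ± 0.08) are canalicular pumps, whereas Cyp8b1, which makes cholic acid, rose by 1.04 ± 0.12. For xenobiotic P450 enzymes, of 25 genes tested 5 rose and 10 fell (median -0.19, 3 and 6 by at least 1.5-fold, 7 and 5 after centring), with Cyp1a2 (-1.74 ± 0.08) and Cyp1a1 (-1.19 ± 0.09) down and Cyp2j4 (1.09 ± 0.10) up. For conjugation enzymes, of 26 genes tested 6 rose and 11 fell (median -0.12, 3 and 6 by at least 1.5-fold, 5 and 6 after centring, 4 and 13 without well 4, 3 and 9 in the fit of 10 arrays). The glucuronosyltransferases Ugt2b1 (-2.44 ± 0.12), Ugt2b (-1.73 ± 0.11) and Ugt2b35 (-1.14 ± 0.08) fell and the sulfotransferase Sult1c3 (3.06 ± 0.17) rose. For amino acid breakdown and urea formation, of 42 genes tested 11 rose and 16 fell (median -0.06, 6 and 12 by at least 1.5-fold). Cth (-1.55 ± 0.09), an enzyme of cysteine formation, fell, and ornithine aminotransferase (Oat, 1.96 ± 0.11), Agxt (1.43 ± 0.09) and Csad (1.04 ± 0.07), the last for taurine formation, rose.

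For hepatocyte identity, of 18 genes tested 3 rose and 9 fell (median -0.12, 1 and 4 by at least 1.5-fold, 3 and 4 after centring, 3 and 6 in the fit of 10 arrays). Fetuin A (Ahsg, -1.20 ± 0.08), tyrosine aminotransferase (Tat, -1.46 ± 0.11) and the transcription factor Onecut1 (-1.50 ± 0.21) fell, and Afm, an albumin relative, rose by 0.89 ± 0.07. Alb, Ttr and the master regulator Hnf4a did not pass the test (0.06, 0.05 and -0.09). For apolipoproteins and lipid transfer, of 21 genes tested 5 rose and 7 fell (median -0.00, 3 and 4 by at least 1.5-fold, 5 and 4 after centring). Apoa5, which promotes breakdown of plasma triglyceride, gave 17528, 18613, 19422, 12434 and 19476 with vehicle and 3929, 3841, 4507, 4036 and 3704 with 8 µM (-2.11 ± 0.08), with no overlap. Lcat (-1.39 ± 0.09), which esterifies plasma cholesterol, and Apoc4 (-1.23 ± 0.09) fell, while Mttp, which loads lipid onto nascent lipoproteins, rose by 1.61 ± 0.08. Of the named genes that rose or fell, 14 had a further probe set that was not called: Acaca, Acot7, Atg12, Cdkn1a, Cs, Ghr, Hlf, Hsph1, Il1r1, Lyve1, Onecut1, Pex16, Psmd11 and Rxrg. No further probe set of a named gene was called in the opposite direction.

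Leaving out vehicle well 4 added 248 rises and 471 falls and removed 239 and 318. The genes named here were picked among those called only without well 4. Their treated wells also had to lie clear of all vehicle wells other than well 4. The place of well 4 in Limd2 and Nrtn below is therefore largely what this choice selects for. Limd2, a LIM domain protein, gave 281, 62.5, 311, 1395 and 442 with vehicle and 714, 743, 449, 563 and 771 with 8 µM, so that well 4 alone lay above every treated well. Its difference was 0.91 ± 0.40, and 1.42 ± 0.33 without well 4 (adjusted p = 0.073 and 7.0e-04 by limma). The other largest rises called only without well 4 were those of Syngr3 (1.71 ± 0.56), Noxo1 (1.46 ± 0.45), Tmem91 (1.36 ± 0.37) and Gpr162 (1.32 ± 0.50). Nrtn, a neurotrophic factor, gave 773, 523, 783, 59.7 and 637 against 244, 351, 373, 187 and 285, with well 4 alone below every treated well, and differed by -1.22 ± 0.31 without it. Eva1c (-1.93 ± 0.58), Sipa1l1 (-1.22 ± 0.34), Rasgrp3 (-1.21 ± 0.36) and RGD1562890 (-1.18 ± 0.44) were the other falls.

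Whether the effect of 8 µM differed between 24 h and 48 h was tested as a difference of differences, each against the vehicle of its own time. It was higher at 48 h for 193 genes (1.67%) and lower for 142 (1.23%), where a deeper fall counts as lower. Without well 4 the counts were 270 (2.34%) and 312 (2.7%). Mapk13, a p38 kinase, had signals of 105 ± 61.0 with vehicle and 80.9 ± 8.58 with 8 µM at 24 h (SD, n = 5), and at 48 h 63.1, 87.7, 77.6, 86.7 and 124 against 408, 430.0, 262, 355 and 566. The 48 h wells did not overlap, which was a condition of the choice, and the change of effect was 2.21 ± 0.51. Its vehicle signals at 48 h and both means at 24 h were below the filter. The size of this change therefore depends on the constant added before the logarithm. Eno2, the neuronal enolase, gave 1168 ± 229 and 1265 ± 203 at 24 h and 1392 ± 236 and 4983 ± 1436 at 48 h, a change of 1.67 ± 0.26. Ppm1j, a phosphatase, and Pla2g4b, a phospholipase, changed by 1.76 ± 0.47 and 1.61 ± 0.46. Dbp, a clock output gene, differed by -1.19 ± 0.29 at 24 h and 0.97 ± 0.29 at 48 h, a fall and a rise. Its lowest 48 h vehicle signal was that of well 4, and without it the change of effect was 1.82 in place of 2.17.

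Negative changes were picked only among genes whose treated and vehicle wells did not overlap at 48 h. The largest of those picked belonged to genes among the largest falls. The choice of the largest falls had the same condition, so this match is partly set by the choice. Genes whose wells overlapped at 48 h were left out of it. Il1r2 went from 4551 ± 474 to 2202 ± 279 at 24 h and from 5024 ± 1053 to 291 ± 80.2 at 48 h (SD, n = 5), a change of -3.00 ± 0.24. Npy changed by -1.95 ± 0.12, with treated signals of 2802 ± 276 at 24 h and 1109 ± 84.1 at 48 h. Cyp2c11 changed by -2.11 ± 0.21, with treated signals of 10906 ± 703 and 1985 ± 388. Trim66 (-2.75 ± 0.74) and Prr15l (-2.39 ± 0.65) were fainter.

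**Figure D4:**
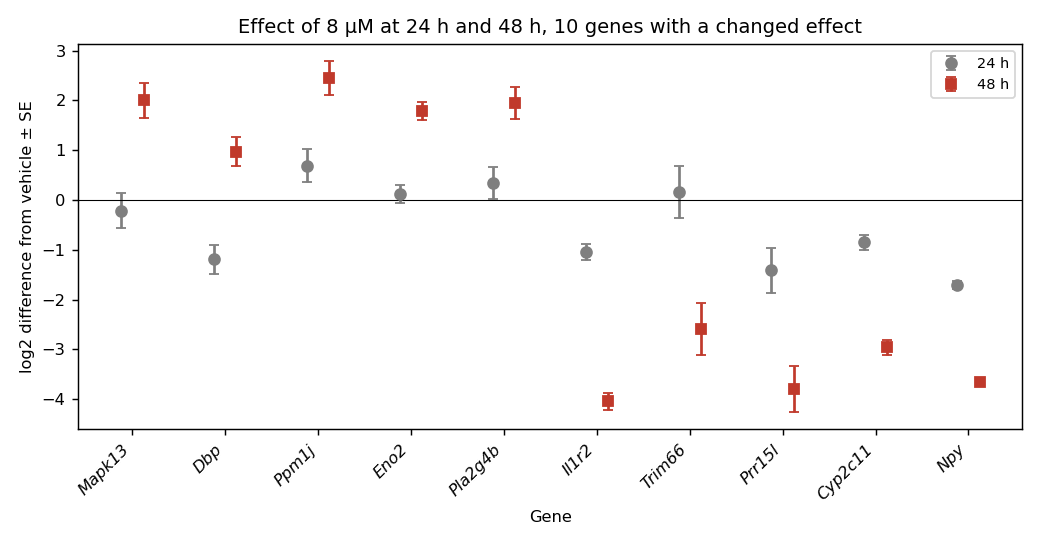
Log2 difference between 8 µM and vehicle at 24 h and at 48 h (bars are SE of the fit, n = 5 wells per group) for the 5 genes with the largest positive and the 5 with the largest negative change of effect. The genes were picked among those with a called change and no overlap of wells at 48 h. Mapk13 lies at -0.21 and 2.00, and Il1r2 at -1.04 and -4.04.

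At 48 h, 200 µM was compared with 8 µM directly. 261 genes were higher at 200 µM (2.26%) and 292 lower (2.53%). Well 4 belongs to neither group and enters through the shared estimate of spread, yet without it the counts were 501 (4.34%) and 536 (4.64%). Both doses share the vehicle wells, so levels are given side by side. Ugt2b1 had a signal of 32238 ± 7509.9 with vehicle, 5811 ± 596 at 8 µM and 18837 ± 2240.2 at 200 µM (SD, n = 5), and the doses differed by 1.69 ± 0.12. Sdf2l1, of the endoplasmic reticulum, gave 2802 ± 186, 2024 ± 157 and 6598 ± 1595 in that order, a difference of 1.67 ± 0.10. Calml4 (1.31 ± 0.32), Phf1, a chromatin protein (2.63 ± 0.53), and Slc13a2, a citrate carrier (2.00 ± 0.49), were also higher at 200 µM.

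In the other direction, Cfd gave 339.9 ± 55.7 with vehicle, 1489.7 ± 219 at 8 µM and 450.2 ± 92.6 at 200 µM (SD, n = 5), and the doses differed by -1.71 ± 0.23. Entpd1 gave 34.5 ± 28.5, 862 ± 218 and 207 ± 90.9, a difference of -2.05 ± 0.36. Plek, known from blood cells, was lower at 200 µM (-2.37 ± 0.54). Lmcd1 (-1.65 ± 0.15) and Veph1 (-1.65 ± 0.35) were lower at 200 µM than at 8 µM, and at 8 µM neither was called against vehicle (-0.29 and 0.53). For the largest rises the doses differed by 0.03 ± 0.41 for Acot1, -0.63 ± 0.23 for Aqp3 and -0.43 ± 0.26 for Fabp3, none past the threshold with all arrays; without well 4 the difference for Aqp3 passed it (adjusted p = 0.0085 by limma).

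**Figure D5:**
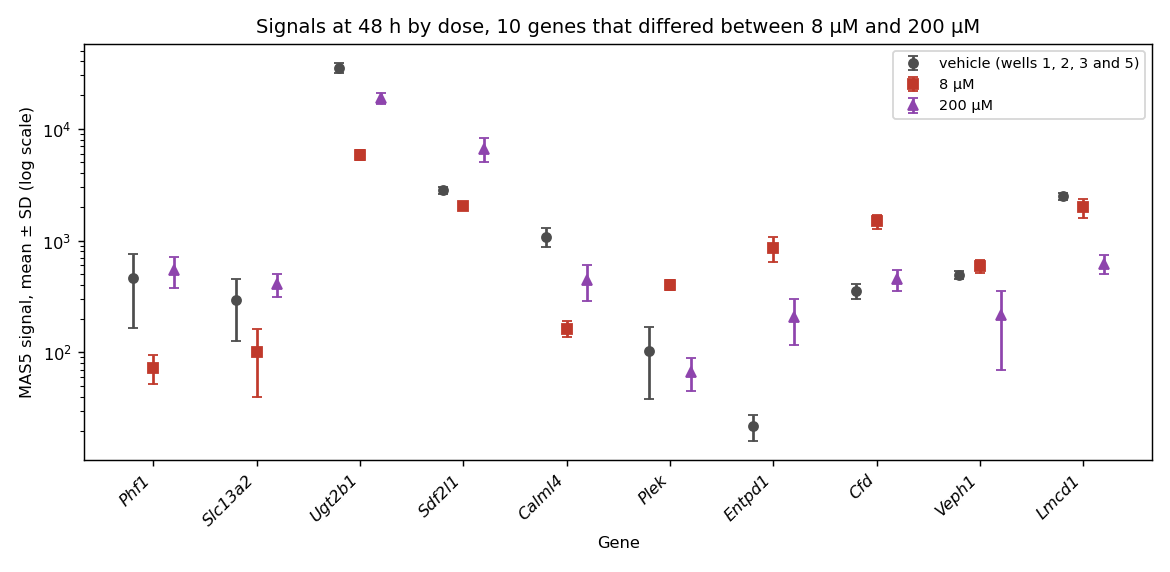
Mean MAS5 signal ± SD at 48 h (log axis) with vehicle (wells 1, 2, 3 and 5), 8 µM and 200 µM (5 wells each) for the 5 genes furthest above and the 5 furthest below their 8 µM level at 200 µM. The genes were picked among those called between the doses with no overlap of 8 µM and 200 µM wells. Cfd and Entpd1 are highest at 8 µM (1489.7 and 862), and Sdf2l1 at 200 µM (6598).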

How the data were processed

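The authors deposited MAS5 signal, a linear intensity per probe set, per the submitters' processing notes; its scaling is not given in the sources used here. Probe sets with 1 gene symbol in the platform annotation were kept, and each gene was represented by its probe set with the highest mean. A gene was tested if at least 5 of the 30 arrays exceeded the 40th percentile of signal. log2(signal + 16) of all 30 arrays, 1 mean per group, was fitted with limma 3.58.1 (R 4.3.3; eBayes with a variance trend), with p-values adjusted over 11545 genes; tables and figures used Python 3.11.15. The code was tested on simulated data. Ratios of control probe sets were compared by exact permutation.

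Named genes were the 15 largest rises and falls, the 5 largest each way called only without vehicle well 4, the 5 largest each way by time and dose, and the 4 with the largest t in each list. All but those of the lists were picked among called genes whose compared wells at 48 h did not overlap. Vehicle well 4 was set aside in this condition for genes called only without it. Acaca, Acox2, Alb, Angptl4, Aqp9, C1qa, Cd36, Crat, Csf1r, Cyp7a1, Cyp8b1, Echs1, Fasn, G0s2, Hadha, Hnf4a, Hp, Hspa5, Krt18, Krt8, Lipe, Orm1, Oxct1, Ppargc1a, Psmb10, Psmb8, Psmb9, Slc27a5, Srebf1 and Ttr were chosen after their values were seen. Members and lists were chosen with earlier results of these data known. Alternatives varied the constant, filter, scaling, probe set rule, arrays in the fit, array weights and a block of consecutive array numbers, and left out each array.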

Additional observations from a re-analysis of the deposited data

Results flagged for a closer look

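In each group of 5 wells, a gene was marked where the gap between the highest or lowest well and its neighbour exceeded 0.71 of the group's range, which chance gives for about 1 in 20 groups. Of 416 groups of named genes, 45 vehicle and 7 treated groups were marked, 44 of them for vehicle well 4. The gap over the range is given after each gene. Vehicle well 4 was highest for Entpd1 (0.719), Krt19 (0.728), Krt79 (0.808), Oxct1 (0.796) and Trim66 (0.783). Vehicle well 4 was lowest for A2m (0.758), Acot4 (0.744), Acox2 (0.762), Acsl3 (0.857), Angptl4 (0.862), Apoa5 (0.765), Ccn2 (0.750), Cp (0.944), Creb3l3 (0.903), Cyp1a1 (0.735), Cyp27a1 (0.736), Cyp4f1 (0.722), Cyp8b1 (0.732), Dnaja1 (0.796), Edem1 (0.817), Eva1c (0.956), Ghr (0.919), Hao2 (0.731), Hnf4a (0.724), Hsp90b1 (0.810), Il1r2 (0.737), Insig1 (0.712), Itih4 (0.779), Jun (0.763), Krt18 (0.742), Lcat (0.918), Lpin1 (0.858), Msmo1 (0.754), Mttp (0.855), Myc (0.862), Nrtn (0.833), Orm1 (0.776), Psmd11 (0.776), Sesn1 (0.767), Sipa1l1 (0.941), Txnip (0.733), Veph1 (0.858), Vim (0.933) and Vldlr (0.744). Vehicle well 5 was lowest for Hsph1 (0.747). Treated well 3 was highest for Itih4 (0.722). Treated well 4 was highest for Oxct1 (0.896). Treated well 5 was highest for Aco1 (0.763), Agxt (0.804), Crat (0.773) and Sult1c3 (0.799). Treated well 5 was lowest for Vim (0.769). The array of vehicle well 4 itself stood apart in its group in median signal (0.932), the share of probe sets above the filter (0.888) and its median correlation with the group (0.985).

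The effect of 8 µM differed between 24 h and 48 h, by the interaction term in limma, for 65 named genes. The effect at 48 h minus that at 24 h, in log2 units, was positive for Mapk13 (2.21), Dbp (2.17), Ppm1j (1.76), Eno2 (1.67), Pla2g4b (1.61), Fabp3 (1.56), Fabp1 (1.33), Abhd5 (1.10), Spc24 (1.10), Oat (1.09), Sult1c3 (1.04), Aqp7 (0.98), Prss23 (0.94), Csad (0.84), Fads1 (0.81), Me1 (0.70), Afm (0.63), Cyp8b1 (0.61), Ctsd (0.54), Mttp (0.54), Decr2 (0.53), Vldlr (0.52), Acsl3 (0.50), Hsph1 (0.50), Acadm (0.43), Sc5d (0.43), Acadvl (0.39), Hacl1 (0.37), Acat1 (0.35), Hadha (0.33) and Dgat2 (0.26). It was negative for Il1r2 (-3.00), Trim66 (-2.75), Prr15l (-2.39), Cyp2c11 (-2.11), Npy (-1.95), A2m (-1.65), Hrg (-1.48), Ucp2 (-1.35), Kng2l1 (-1.20), S100a6 (-1.20), Lipe (-1.14), Ugt2b (-1.12), Apoa5 (-1.04), Cyp1a2 (-1.01), Hao2 (-0.93), Ahsg (-0.90), Cp (-0.85), Serpind1 (-0.80), Aqp9 (-0.77), Fn1 (-0.77), Itih4 (-0.75), Serpina3n (-0.67), Apoc4 (-0.66), Hspa1a (-0.66), Lcat (-0.66), Ccn2 (-0.62), Cyp4a1 (-0.62), Steap4 (-0.59), C1s (-0.58), Txnip (-0.56), Abcb4 (-0.50), Ugt2b35 (-0.41), Xbp1 (-0.35) and Cdkn1a (-0.24).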

How the results depend on the processing

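With a change of at least 1.5-fold also required, 717 rises and 920 falls remained, the change from 24 h was higher for 66 and lower for 81 genes, and 200 µM was higher for 49 and lower for 61. Median centring gave 766 falls, 34 and 8 changes from 24 h, and 38 and 58 dose differences. Array weights gave 314 lower effects at 48 h and 569 and 577 dose differences. Quantile normalization gave 271 lower effects. With the arrays of the groups compared alone, 108 effects were higher at 48 h and 439 genes lower at 200 µM, and with 48 h arrays alone the dose differences were 108 and 155. With vehicle well 4 left out, quantile normalization gave 312 and 359 changes from 24 h and 541 and 550 dose differences, median centring 217 lower effects and 455 genes lower at 200 µM, and the 48 h arrays alone, chosen after seeing the data, 425 and 458. The causes were not tested. Leaving out 1 array at a time gave 1763 to 1949 rises, 1994 to 2337 falls, 138 to 270 higher and 112 to 312 lower effects at 48 h, and 179 to 501 higher and 217 to 536 lower genes at 200 µM; the highest counts of the last 4 came without vehicle well 4. Of 183 named genes called at 8 µM, 13 lost the call under median centring (Acox2, Cd14, Cdkn1a, Chac1, Dusp1, Lyve1, Nfil3, Nr3c1, Per2, Psmb10, Psmb8, Psmb9 and Sdf2l1) and 19 missed 1.5-fold, and none changed sign under any alternative run. Median centring with vehicle well 4 left out cost 2 their call. Calls lost by leaving out 1 array were those of Cd68 (without vehicle well 1, vehicle well 2, treated well 1 and treated well 3), Lyve1 (without vehicle well 3, vehicle well 4, treated well 3 and treated well 5), Plek (without vehicle well 1, vehicle well 2, vehicle well 3, treated well 1, treated well 2, treated well 3, treated well 4 and treated well 5) and Psmb8 (without vehicle well 4 and treated well 1). The labels number no replicates, so wells were not paired by number. Sets of 6 consecutive array numbers, each with 1 array of every group, were inferred from that order and are named by no label; as a block they gave 1958 rises and 2204 falls and cost no named gene its call. Signals below the filter have no sure fold, and 5 wells a group limit the precision.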

Other observations

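For the proteasome, of 28 genes tested 15 rose and 3 fell (median 0.20, 0 and 1 by at least 1.5-fold, 13 and 0 after centring, 14 and 2 without well 4, 9 and 2 in the fit of 10 arrays), with Psmd11 (0.39 ± 0.06), Psma4 (0.38 ± 0.06) and Psma1 (0.34 ± 0.06) among the rises. The 3 that fell, Psmb10 (-0.60 ± 0.13), Psmb9 (-0.28 ± 0.07) and Psmb8 (-0.26 ± 0.09), are the immunoproteasome subunits, and the call of Psmb8 was lost without vehicle well 4 or treated well 1. For the integrated stress response, of 23 genes tested 10 rose and 4 fell (median 0.20, 3 and 1 by at least 1.5-fold, 10 and 0 after centring), with the fasting hormone Fgf21 (0.95 ± 0.11) and the lipoprotein receptor Vldlr (0.92 ± 0.10) up and Chac1 (-0.51 ± 0.09) down. For NRF2 and antioxidant genes, of 26 genes tested 10 rose and 6 fell (median 0.10, 2 and 1 by at least 1.5-fold, 7 and 0 after centring, 5 and 4 in the fit of 10 arrays), with the epoxide hydrolase Ephx2 (1.71 ± 0.07) and catalase (Cat, 0.69 ± 0.07) up. For heat shock proteins, of 13 genes tested 5 rose and 4 fell (median 0.10, 2 and 1 by at least 1.5-fold, 5 and 1 after centring), with Dnaja1 (0.63 ± 0.07) up and Hspa1a (-0.72 ± 0.08) down.

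For DNA replication and the cell cycle, of 36 genes tested 9 rose and 3 fell (median -0.07, 6 and 1 by at least 1.5-fold, 9 and 1 after centring, 9 and 3 without well 4 where the median was 0.11, 7 and 2 in the fit of 10 arrays), with Cdc25a (0.77 ± 0.10) and Cks2 (0.51 ± 0.07) up and Myc (-0.80 ± 0.11) and Cdkn1a (-0.42 ± 0.05) down. For p53 targets and apoptosis, of 17 genes tested 4 rose and 6 fell (median -0.17, 2 and 3 by at least 1.5-fold, 4 and 3 after centring, 4 and 9 without well 4), with Sesn1 (-1.60 ± 0.09), a stress sensor, and Bbc3 (-0.74 ± 0.09), a death gene, down. For the growth hormone axis, of 16 genes tested 2 rose and 9 fell (median -0.46, 2 and 4 by at least 1.5-fold, 2 and 4 after centring, 1 and 7 without well 4, 0 and 7 in the fit of 10 arrays), and the receptor Ghr (-0.81 ± 0.12) and the binding proteins Igfbp4 (-0.82 ± 0.15) and Igfbp2 (-1.15 ± 0.23) were among those that fell. For the circadian clock, of 16 genes tested 8 rose and 4 fell (median 0.14, 4 and 1 by at least 1.5-fold, 8 and 0 after centring, 5 and 2 in the fit of 10 arrays), with Hlf (1.25 ± 0.13) and Nr1d2 (0.43 ± 0.08) up and Per2 (-0.52 ± 0.11) and Nfil3 (-0.62 ± 0.14) down. For iron handling, of 14 genes tested 7 rose and 4 fell (median 0.17, 3 and 3 by at least 1.5-fold, 7 and 2 after centring), with the iron regulatory protein Aco1 (1.28 ± 0.09) and Hjv (0.73 ± 0.09) up. For lysosome and autophagy, of 24 genes tested 7 rose and 5 fell (median 0.03, 1 and 1 by at least 1.5-fold, 7 and 0 after centring, 7 and 6 without well 4 where the median was -0.07, 6 and 2 in the fit of 10 arrays), with Ctsd (0.52 ± 0.07), a protease, up.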
